A study of Sus scrofa with 21 samples.

Results

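The genes of the spermatid manchette and of the sperm head-tail junction were followed through 21 testis libraries of Landrace and Duroc boars. They were chosen by name, as SPEF2, HOOK1, SUN5, PMFBP1, SPATA6, OAZ3, CCDC42 and IFT88, and 7 of these 8 were matched to a row of the counts, out of 25880 genes counted. HOOK1, which codes for a manchette linker protein and lies on chromosome 6 from 152636118 to 152709422, had no identifier in the name table used and has no value here.

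The manchette is a transient skirt of microtubules around the nucleus of the elongating spermatid. It shapes the sperm head and carries proteins to the growing tail. At the same time the head-tail coupling apparatus, or connecting piece, anchors the tail in the nuclear envelope, and when it fails sperm lose their heads or their motility.

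Testis tissue was taken after slaughter from boars in artificial insemination service, 1 library per boar, and sequenced as stranded mRNA. Among the Landrace boars, 4 had low (L1 to L4) and 4 had high (L5 to L8) sperm hyperactive motility on the day of ejaculation, day 0. In a second comparison, 4 Landrace boars (L2, L9, L10, L12) had a low and 3 (L7, L13, L15) a high change in this trait once semen had been stored for 96 h, so L2 and L7 served in both. The labels call 5 Duroc boars high (D1 to D5) and 3 low (D6, D7, D9), but by name 7 of these 8 have the opposite group in the study's own list, so they are called "labelled high" and "labelled low". No boar received an experimental treatment. The sperm themselves were not sequenced, and in whole tissue fewer cells of a type and less RNA per cell cannot be told apart.

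The libraries held 47988011 to 97059970 counts in Landrace and 41358671 to 125576407 in Duroc. No 2 boars of a group agreed within sampling noise. Every boar had counts for the defining markers of elongating spermatids that were matched, 8 of 10 listed, with summed levels of 5343 to 13011 CPM (a gene's count relative to its library total), and no matched marker of any cell type was at 0 throughout. Here and throughout, CPM are scaled by TMM, the trimmed mean of M-values. Each boar is a separate animal, so p-values measure the spread between boars. The length of each message was not known, so levels of different genes are not compared.

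All 7 matched genes were read deeply, with at least 394 counts in every boar, and all 7 passed the filter on low counts in every comparison. They varied to different degrees over the 21 boars. IFT88, a core subunit of the intraflagellar transport B complex that moves cargo along the manchette and tail, was steady, from 74 CPM in D1 to 118 in L8, with a coefficient of variation of 13.3%, at the 6.52 percentile of 12835 genes. CCDC42, a coiled-coil protein needed in mice for the connecting piece and tail, ran from 5.6 CPM in L6 to 39.8 in D4, a coefficient of variation of 48.9% at the 92 percentile. SPEF2, a central pair and manchette protein whose disruption by an insertion causes short-tailed immotile sperm in pigs, ran from 94.5 CPM in L13 to 484 in D2, with 44.6% at the 88.7 percentile. The median over all genes was 24.2%.

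The other members varied less than the median gene. SUN5, a SUN-domain protein of the inner nuclear membrane that anchors the tail to the nucleus, ran from 20.9 to 45.4 CPM. PMFBP1, which sits in the coupling apparatus between SUN5 and SPATA6, ran from 501.5 to 1049 CPM, and SPATA6, required for the connecting piece, from 476 to 953 CPM. OAZ3, the spermatid form of ornithine decarboxylase antizyme whose loss in mice separates heads from tails, ran from 584 CPM in L13 to 1697 in L4.

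**Figure D1:**
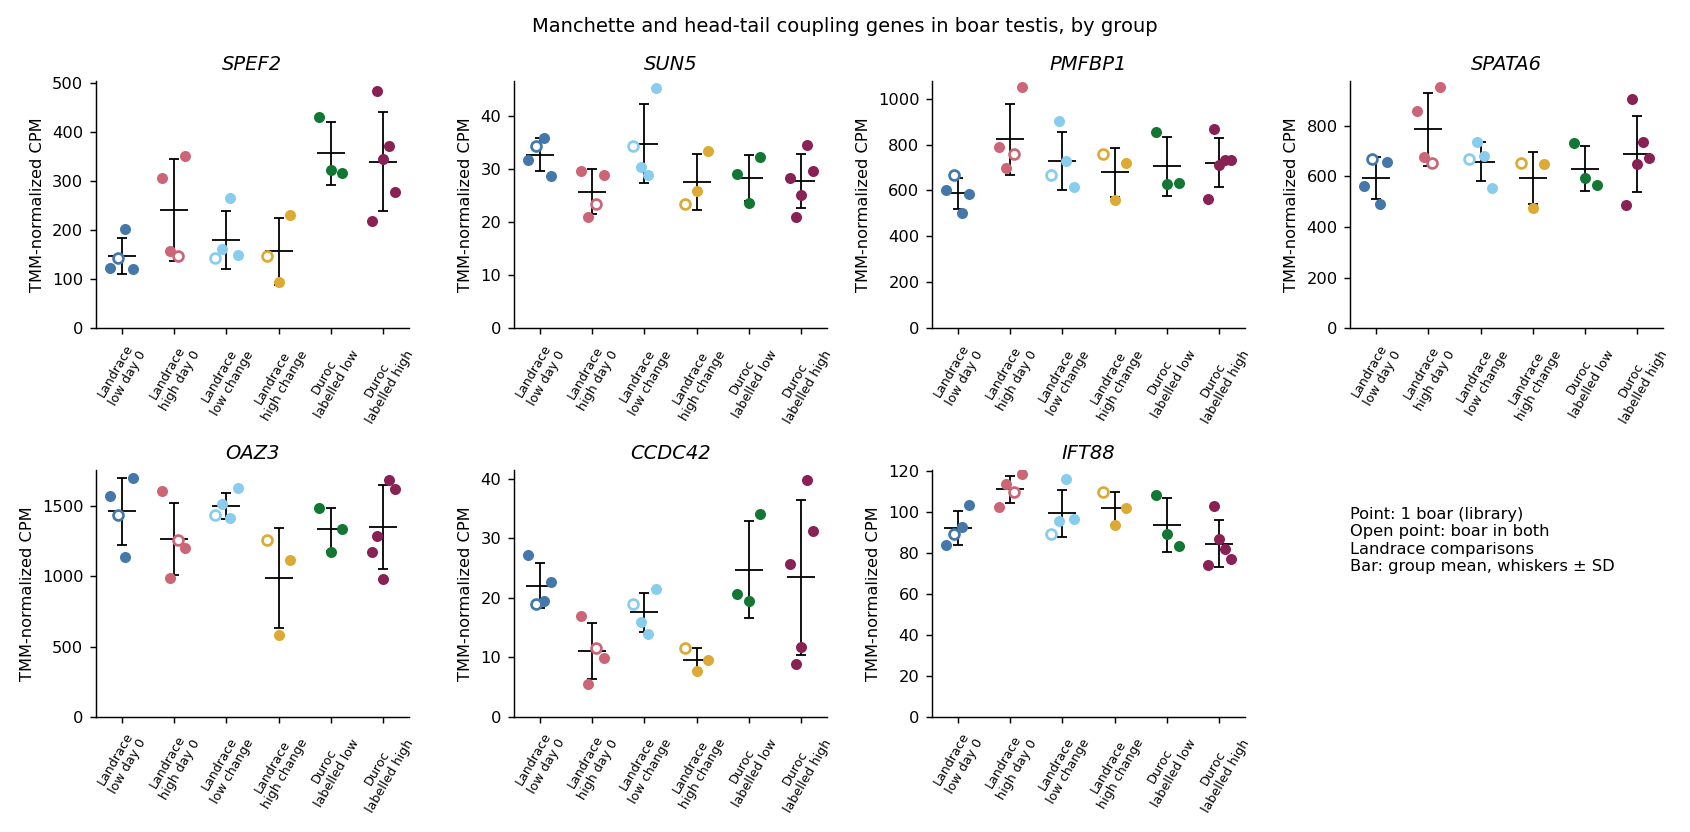
TMM-normalized CPM (vertical axes, from 0) of the 7 matched genes in 6 groups, 1 point per boar, with the group mean and SD as bar and whiskers and open points for L2 and L7, which are in both Landrace comparisons. SPEF2 sits higher in Duroc than in most Landrace boars, and CCDC42 is below 12 CPM in every high change Landrace boar.

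By gene the groups stood in different orders. For SPEF2 the means fell from 356 ± 63.6 CPM (SD, n = 3) in Duroc labelled low and 339 ± 100.5 (n = 5) in Duroc labelled high to 240.1 ± 104 (n = 4) in Landrace high day 0. Landrace low change followed at 179.5 ± 58.3 (n = 4), then high change at 157 ± 68.4 (n = 3) and low day 0 at 147 ± 37.6 (n = 4). For CCDC42 the order was Duroc labelled low, 24.7 ± 8.15 CPM, Duroc labelled high, 23.5 ± 13.1, Landrace low day 0, 22.1 ± 3.81, low change, 17.6 ± 3.32, high day 0, 11 ± 4.71, and high change, 9.63 ± 1.92. Between neighbours in these 2 orders the ranges of the boars overlapped in each case.

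The first comparison asked which of these genes differed in testis between Landrace boars with high and low hyperactivity at day 0. CCDC42 was lower in the high hyperactivity group, and none of the other 6 passed the test. That is 1 of 7, where 20.7% of all 12979 genes tested passed the quasi-likelihood test of edgeR after adjustment by Benjamini and Hochberg, 4.82% higher and 15.8% lower. DESeq2 split its own calls differently, with 62.8% lower against 76.7% in edgeR, and without L2 and L7 the edgeR share was 95.7%. The median log2 fold change, high over low, was 0.19 over the 7 genes and 0.03 over all genes, with 4 values above and 3 below 0.

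CCDC42 had levels of 27.2, 18.9, 19.5 and 22.6 CPM in the low boars L1 to L4. In the high boars L5 to L8 it had 17, 5.6, 11.6 and 9.84 CPM. Each of the 4 high boars was below each low boar, with L6 lowest, as held in this direction for 16.6% of all genes. High over low, the difference was -1.07 on the log2 scale with a standard error of 0.29 and passed (adjusted p = 0.0284, quasi-likelihood test of edgeR), a level 0.477 times that of the low group. A two-sided exact permutation test gave p = 0.0286, the smallest that 4 boars against 4 allow. The call was lost without L1 (adjusted p = 0.0677), L3 (0.0535), L6 (0.0548) or L8 (0.0577), while the log2 fold change stayed between -1.34 and -0.85 over the 8 fits that left out 1 boar.

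PMFBP1 had 600.5, 666, 501.5 and 586 CPM in the low boars and 789, 698, 758 and 1049 CPM in the high boars. The groups did not overlap, which held in the higher direction for 14.8% of all genes and in either direction for 31.4%, against 2 of the 7 here. For PMFBP1 this separation depended on the TMM scaling. The low boar L2 had 53756 of 77217140 counts and the high boar L6 49070 of 74211114. Without the scaling L2 therefore lay above L6. The scaling factor was 0.822 in L8, the highest boar, and 1.181 in L3, the lowest. At a log2 fold change of 0.41 and a standard error of 0.15 it missed the threshold (adjusted p = 0.0642, edgeR). It passed by the likelihood ratio test that the study used (adjusted p = 0.0415) and by DESeq2 (0.034). L8 held the highest level of the 21 boars, and without L8 the log2 fold change was 0.29.

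Its partner SPATA6 had 563.5, 667, 490.3 and 655.5 CPM in the low boars and 858, 677, 653 and 953 in the high boars. L5 and L8 stood above the rest and the groups overlapped. Its log2 fold change was 0.33 with a 95% interval from 0.03 to 0.63, although the test's own unadjusted p was 0.0547 (adjusted p = 0.127, edgeR), since the limits are normal and narrower than the test. SPEF2 had 123, 143, 202 and 121 CPM in the low boars and 306.5, 156, 146 and 351 in the high boars. The same L5 and L8 lay above every low boar, L6 and L7 within their range, and the log2 fold change was 0.63 with an interval from 0.08 to 1.17 (adjusted p = 0.112, edgeR).

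SUN5 leaned the other way, with 31.8, 34.4, 35.8 and 28.8 CPM in the low boars against 29.7, 21, 23.5 and 28.9 in the high boars. Overlap came from L4, which lay below L5 and L8. SUN5 had a log2 fold change of -0.41, with an interval from -0.73 to -0.1 (adjusted p = 0.0754, edgeR). OAZ3 at -0.28 (interval -0.62 to 0.07) and IFT88 at 0.19 (interval -0.04 to 0.43) were nearest to no difference (adjusted p = 0.242 and 0.22, edgeR).

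How many genes passed in this comparison hung on single boars. Without L3 or without L6, 1 gene passed in all, without L1, L4 or L8 966, 1481 and 1228 genes passed, and without L5 the count was 3764.

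**Figure D2:**
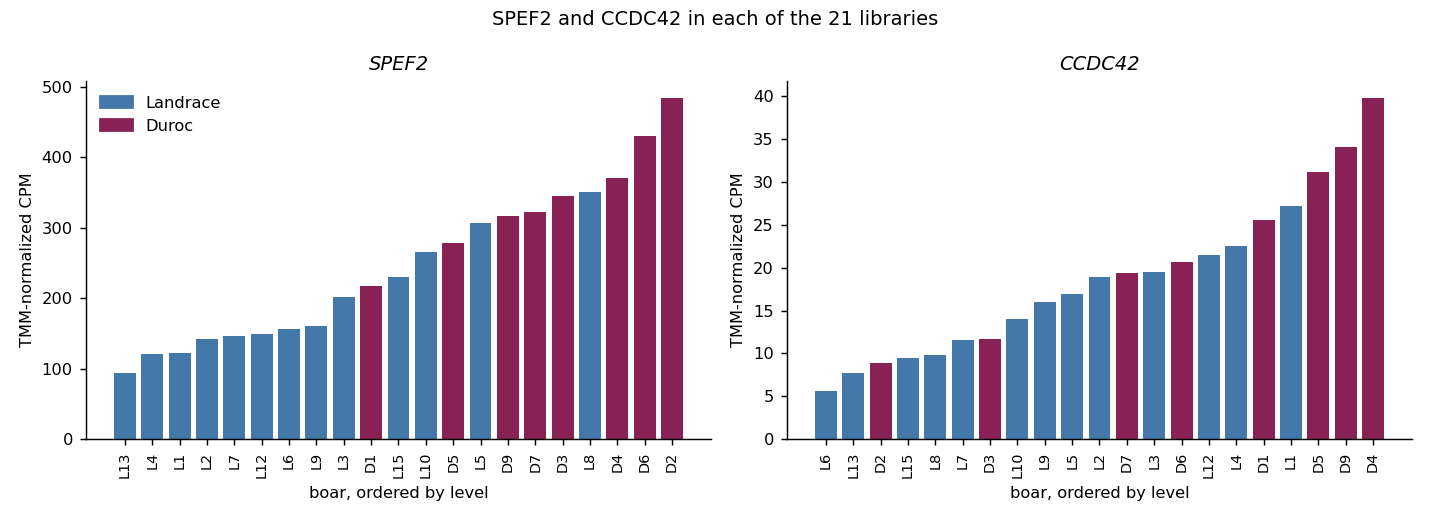
TMM-normalized CPM (vertical axis, from 0) of SPEF2 and CCDC42 in each of the 21 boars, ordered from lowest to highest, with Landrace and Duroc bars in different colours. The 9 lowest SPEF2 bars are all Landrace, while for CCDC42 the breeds are mixed along the order except for 3 Duroc boars at the top.

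The second comparison asked which genes differed between Landrace boars with a high and a low change in hyperactivity over storage, and it shares L2 and L7 with the first. None of the 7 genes passed. In edgeR 0 of 12824 genes passed after adjustment, or 0%, while 2540 genes had an unadjusted p under 0.05, and the likelihood ratio test called 64 genes and DESeq2 116. CCDC42 and OAZ3 had the largest log2 fold changes of the 7, and their groups did not overlap, with the high change boars lower. That is 2 of 7, against 16.4% of all genes in either direction and 8.47% in this one.

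CCDC42 had 18.9, 16, 14 and 21.5 CPM in the low change boars L2, L9, L10 and L12, and 11.6, 7.77 and 9.52 CPM in the high change boars L7, L13 and L15. Every high change boar was below every low change boar. In edgeR its log2 fold change was -0.88 with a standard error of 0.22, which did not pass (adjusted p = 0.24, unadjusted p = 0.0025) and stood at rank 77 of all genes by p. DESeq2 gave an adjusted p of 0.0254, and over all alternatives the adjusted p ran from that value to 0.606, without L13. Without L2 and L7, whose values also stand in the first comparison, the log2 fold change was -1.01 (adjusted p = 0.304, edgeR).

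OAZ3 had 1440.5, 1518, 1419 and 1629 CPM in the low change boars and 1262, 584 and 1116 CPM in the high change boars. L13 lay far below the other 20 boars for this gene. OAZ3 differed by -0.62 on the log2 scale with a standard error of 0.22 (adjusted p = 0.24, edgeR), which shrank to -0.34 without L13. The exact permutation p was 0.0286 for OAZ3 and for CCDC42, the smallest that 3 boars against 4 allow.

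The remaining 5 genes overlapped between the groups. SUN5 had a log2 fold change of -0.35 (interval -0.75 to 0.06), SPEF2 -0.2 (-0.79 to 0.38), SPATA6 -0.16 (-0.46 to 0.13), PMFBP1 -0.11 (-0.43 to 0.2) and IFT88 0.02 (-0.24 to 0.29). L13 had the lowest SPEF2 and SPATA6 of all boars, at 94.5 and 476 CPM, and without it the log2 fold change of SPEF2 was 0.07 and that of PMFBP1 0.02. The median over the 7 genes was -0.2, against 0 over all genes.

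Among the Duroc boars labelled high and low, none of the 7 genes passed and no pair of groups was free of overlap. In edgeR 0 of 13043 genes passed (0%), 158 had an unadjusted p under 0.05, and the likelihood ratio test and DESeq2 also called 0. Over all genes 1.3% did not overlap. The 7 log2 fold changes, labelled high over labelled low, lay between -0.12 for IFT88 and 0.16 for SPATA6.

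The precision differed between the genes. The interval of PMFBP1 ran from -0.28 to 0.39 and that of IFT88 from -0.41 to 0.17, while that of CCDC42 ran from -0.94 to 0.83. CCDC42 had 25.6, 8.88, 11.7, 39.8 and 31.2 CPM in the labelled high boars D1 to D5 and 20.7, 19.4 and 34.1 CPM in D6, D7 and D9. Both the highest and the lowest Duroc level stood in the labelled high group. The sign of each of these Duroc values rests on the labels as given. The effect of the high label in Duroc minus that in Landrace at day 0 was tested by an interaction term, whose values rest on the same labels and were not computed under any other assignment. No gene passed (0 of 12920, 0%, in edgeR, 1946 unadjusted, 3 by the likelihood ratio test and 6 by DESeq2). For CCDC42 the difference was 1 on the log2 scale (interval -0.17 to 2.18, adjusted p = 0.374), for SPEF2 -0.71 (-1.46 to 0.05, adjusted p = 0.347), and for IFT88, which had the smallest p of the 7, -0.34 (-0.66 to -0.03, adjusted p = 0.329).

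**Figure D3:**
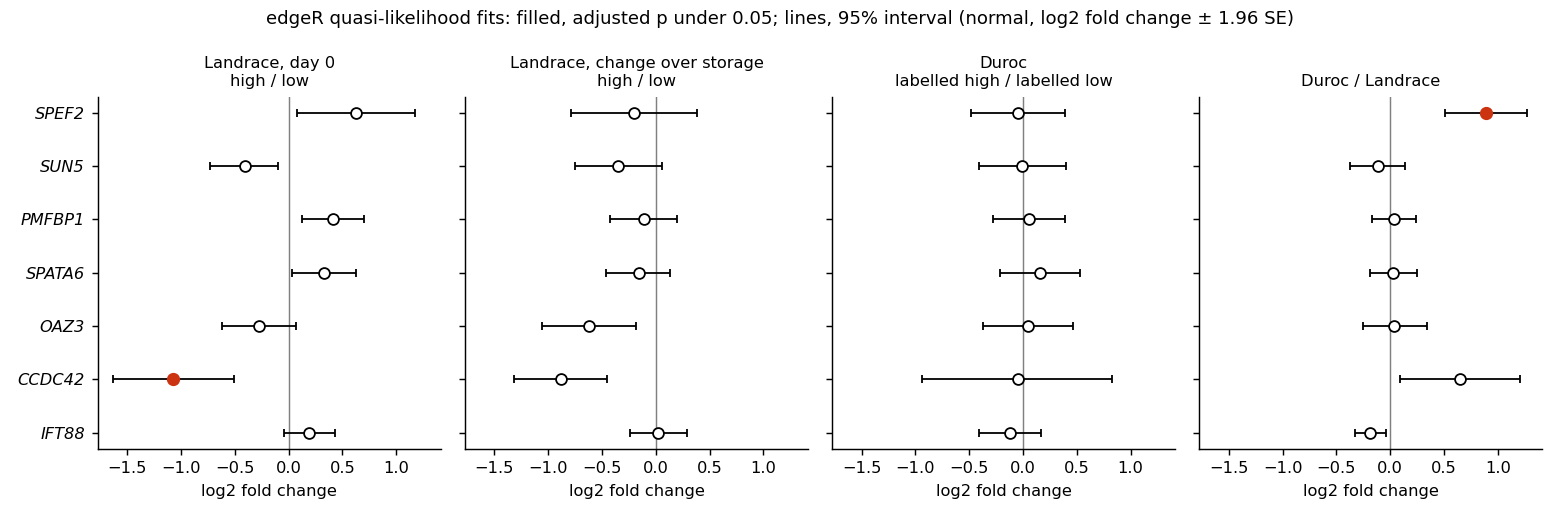
Log2 fold change (horizontal axes) of the 7 genes in 4 comparisons, with lines for the 95% interval and filled points where the adjusted p from edgeR was under 0.05. The filled points are CCDC42 at -1.07 in the Landrace day 0 comparison and SPEF2 at 0.89 between the breeds.

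The fourth comparison set the 8 Duroc boars against the 13 Landrace boars. SPEF2 was higher in Duroc, and the other 6 genes did not pass. That is 1 of 7, where 2.77% of 12835 genes passed in edgeR and 1.29% passed as higher in Duroc. The median log2 fold change, Duroc over Landrace, was 0.04 over the 7 genes and -0.01 over all genes.

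SPEF2 ran from 94.5 to 351 CPM in Landrace with a median of 156, and from 218 to 484 CPM in Duroc with a median of 333. The breeds overlapped, as they did for all but 0.242% of genes, and D2, D4 and D6 were above every Landrace boar, and 9 of the 13 Landrace boars were below every Duroc boar. The Duroc boar was the higher in 95 of 104 pairs of a Duroc and a Landrace boar. This was a log2 fold change of 0.89 (standard error 0.19, interval 0.51 to 1.27), or 1.86-fold, at rank 147 by p (adjusted p = 0.0103, edgeR). A two-sided permutation test on log2 CPM gave p = 0.00078.

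The breed difference in SPEF2 passed in each of the 21 fits that left out 1 boar, with log2 fold changes from 0.81 without D2 to 1 without L8. Its size varied with the Landrace boars set against Duroc. Against the 4 low day 0 boars it was 1.18 (adjusted p = 0.00907, edgeR), against the 5 boars in neither day 0 group 0.96 (0.0521), and against the 4 high day 0 boars 0.58 (0.298). Within the Landrace boars, L5, L8, L10 and L15 lay above the lowest Duroc boar, and L8, at 351 CPM, above the Duroc median of 333. The sources used here do not give whether the libraries of the breeds were prepared together, so a preparation batch and breed cannot be told apart.

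None of the other 6 members passed between the breeds. IFT88 ran from 83.7 to 118 CPM in Landrace and from 74 to 108 in Duroc, a log2 fold change of -0.19 (interval -0.33 to -0.04, adjusted p = 0.231, edgeR), and 4 Duroc boars were below every Landrace boar. CCDC42 was at 0.65 (interval 0.09 to 1.21, adjusted p = 0.321, edgeR), with D4, D5 and D9 above every Landrace boar and D2 and D3 among the low ones. PMFBP1, SPATA6 and OAZ3 lay between 0.03 and 0.04, and SUN5 at -0.11, with intervals that reached no further than 0.37 from 0 in either direction.

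The chromosomal surroundings of the changed members were also read. On Sscrofa11.1 in the RefSeq annotation, SPEF2 (ENSSSCG00000016831) lies on chromosome 16 from 21088463 to 21264591, and CCDC42 (ENSSSCG00000017988) on chromosome 12 from 53869559 to 53883929. Of 10 genes tested within 1 Mb of SPEF2, none passed between the breeds, with log2 fold changes from -0.12 to 1.02. Of 34 tested within 1 Mb of CCDC42, 11 were lower in the high hyperactivity group at day 0 and none higher, where 15.8% and 4.82% of all genes were, and their median log2 fold change was -0.51.

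For the other members the locations are chromosome 17 from 36508569 to 36528052 for SUN5 (ENSSSCG00000007256) and chromosome 6 from 15014742 to 15130971 for PMFBP1 (ENSSSCG00000002747). SPATA6 (ENSSSCG00000003881) lies on chromosome 6 from 163278954 to 163410174 and OAZ3 (ENSSSCG00000027091) on chromosome 4 from 97439993 to 97448493. IFT88 (ENSSSCG00000009270) lies on chromosome 11 from 943444 to 1025617. Annotated genes overlap SPEF2 (LOC106508146), PMFBP1 (DHX38 and LOC110260920) and OAZ3 (MRPL9). Reads were counted by strand, but the strands of these genes were not in the table used, so reads in the overlaps are uncertain.

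Genes linked with these structures were read from lists. The lists are mixed, since that of the coupling apparatus also holds the tail genes TTC29 and CFAP43. Their counts and medians are therefore not those of a single structure. In the Landrace day 0 comparison, 6 of 29 tested manchette and intramanchette transport genes rose and 6 fell, with a median of 0.31. The shares of all genes that rose and fell in that comparison, 4.82% and 15.8%, are the background for this and the lists that follow, and a count of fallen genes near it is no result about a list. MNS1, a spermatid filament protein, rose by 0.60 on the log2 scale (763 against 479 CPM, adjusted p = 0.0274), and RANBP9 by 0.55 (0.0327). KIF17, a kinesin motor, fell by 0.88 (82.9 against 145 CPM, adjusted p = 0.0219). These and the adjusted p-values that follow are from edgeR's quasi-likelihood test. HOOK2, a paralogue of the unmatched HOOK1 that was picked out after its value was seen, fell by 1.03 (0.025).

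Around IFT88, 1 of 17 intraflagellar transport genes rose and 3 fell, near the background of 4.82% and 15.8%. IFT81, its neighbour in complex B, rose by 0.61 (232 against 144 CPM, adjusted p = 0.0286). IFT140 of complex A fell by 1.02 (6.81 against 13.2 CPM, adjusted p = 0.0212), and TRAF3IP1, also known as IFT54, fell by 0.61 (0.0266). The median of the list was 0.15.

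Around PMFBP1 and SPATA6, 3 of 22 genes of the coupling apparatus and sperm centriole rose and 7 fell (4.82% and 15.8% of all genes), with a median of 0.18. CNTLN (centlein), a protein of the centriole and connecting piece, rose by 0.56 (132 against 85.6 CPM, adjusted p = 0.0246), and CETN3, a centrin, by 0.53 (0.0301). SPATA20 fell by 1.33 (96.7 against 232 CPM, adjusted p = 0.0208) and WDR90, a centriole wall protein at 0.541 against 1.94 CPM, fell by 1.92 (0.0208). In the high boars the mean of WDR90 was under the filter's 1 CPM, so it was kept through the low boars. The same held for CEP131 (0.537 against 1.4 CPM), 1 of the manchette genes that fell. Both calls thus rest on low levels.

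Around SUN5, none of 24 genes of the nuclear envelope, acroplaxome and perinuclear theca rose and 7 fell (4.82% and 15.8% of all genes), with a median of -0.25. ACTL7B, an actin-like protein of the spermatid, fell by 1.5 (32.7 against 88.8 CPM, adjusted p = 0.0208), and LMNB2, lamin B2, by 1.02 (10.7 against 20.8 CPM, adjusted p = 0.0208). Around OAZ3, 1 of 7 antizyme and polyamine genes rose and 1 fell. These were the antizyme inhibitors AZIN1, which rose by 0.43 (adjusted p = 0.0443), and AZIN2, which fell by 0.91 (adjusted p = 0.025).

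In the storage comparison none of the genes of these 5 lists passed, and the smallest unadjusted p of each belonged to KATNAL2 (-0.49), IFT27 (-0.66), CETN1 (-0.69), SUN2 (-0.71) and SAT1 (0.87), each at an adjusted p of 0.24 in edgeR. Between the Duroc labels none passed either, and the same reading gave KIF3B (-0.2), IFT172 (-0.24), CNTROB (-0.36), SPATA46 (0.33) and ODC1 (-0.16). Between the breeds TTC29, a dynein-associated tail protein, was the 1 gene that passed in these lists, lower in Duroc (69.7 against 100.4 CPM, log2 fold change -0.51, adjusted p = 0.0129, edgeR). The smallest p of the other lists were those of SPAG16 (-0.49), WDR35 (0.4), ACTRT1 (0.25) and OAZ1 (-0.09), none past the threshold. In the interaction fit they were HOOK3 (-0.75), IFT57 (-0.68), CFAP43 (-0.88), ACTRT2 (1.66) and AZIN1 (-0.51), all at an adjusted p of 0.329 in edgeR.

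Markers of elongating spermatids moved with the Landrace groups as well. In the day 0 comparison 5 of the 8 fell in the high hyperactivity group, PRM1, TNP2, TSSK6, GAPDHS and SPATA3, by 0.70 to 1.41 on the log2 scale. TNP1 and AKAP4, which weigh most in the summed CPM, were at 0.21 and 0.31 and did not pass. The geometric mean of the 8 markers was 203 to 256 CPM in the low day 0 boars and 134 to 191 in the high day 0 boars, without overlap. In the storage comparison it was 199 to 242 CPM against 77.9 to 177, again without overlap, although no marker passed there. The summed level, which TNP1 and AKAP4 dominate, overlapped at day 0, 7639 to 11768 CPM in the low boars against 9822 to 13011 in the high boars. The part of these markers in the CCDC42 result was not tested, but the values relative to them can be given.

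Relative to the markers, CCDC42 was lower on average in the high day 0 boars, but by less than in log2 CPM, where the difference was -1.09. No test was run on the ratio. The log2 ratio of CCDC42 to the marker mean ran from -3.5 to -3.15 in the low day 0 boars and from -4.58 to -3.49 in the high day 0 boars, which overlap through L5 alone, with means of -3.37 and -3.97. It ran from -3.85 to -3.42 against -3.93 to -3.33 in the storage comparison, with means of -3.65 and -3.69. PMFBP1, SPATA6, OAZ3 and IFT88 stood higher on this scale in the high day 0 boars without overlap, 4 of 7 where 39% of all genes did so. For PMFBP1 the ratio was 1.19 to 1.71 in the low and 2.05 to 2.85 in the high day 0 boars. The storage comparison, which shares L2 and L7, gave 1.35 to 1.97 against 2.1 to 2.84 for PMFBP1, and there 50.1% of all genes were higher without overlap.

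**Figure D4:**
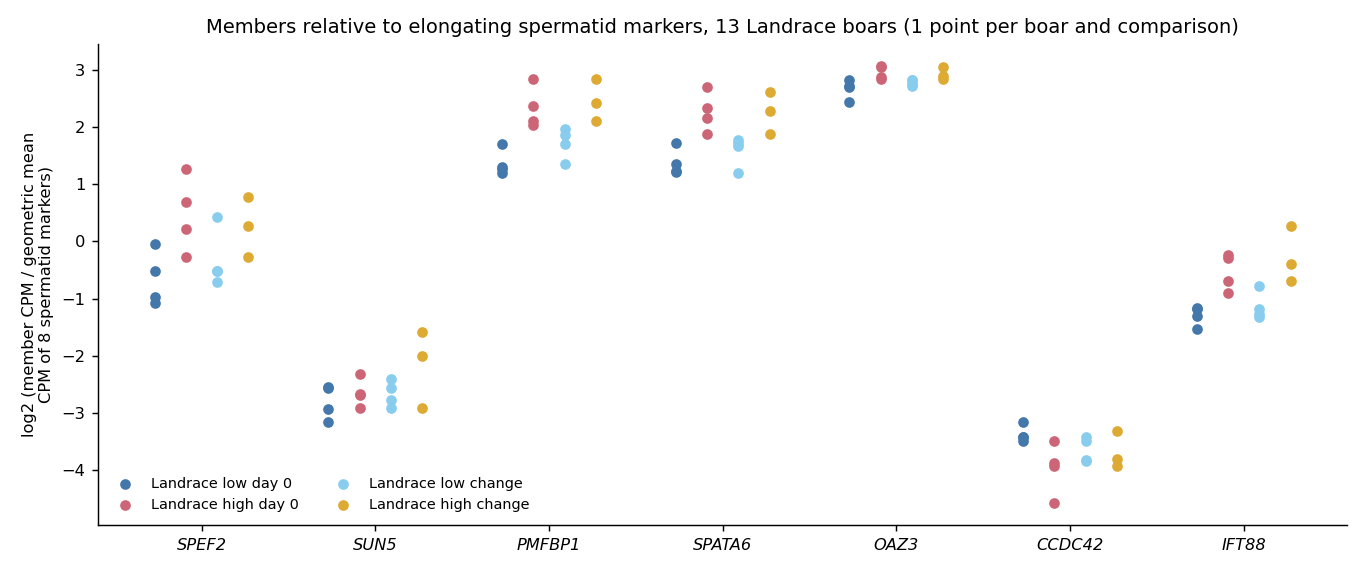
Log2 ratio of each gene's CPM to the geometric mean CPM of 8 elongating spermatid markers (vertical axis), 1 point per Landrace boar and comparison, with the 4 Landrace groups in colours. PMFBP1, SPATA6, OAZ3 and IFT88 lie higher in the high than in the low day 0 boars, and CCDC42 overlaps. The marker mean is itself lower in the high day 0 boars, which raises the ratio of an unchanged gene. Of all genes 39% were higher there without overlap.

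Other cell types were read from their markers. At day 0, DMC1 of the spermatocytes rose by 0.50, the round spermatid markers ACR and SPACA3 fell by 1.05 and 0.75, and DES and MYH11 of smooth muscle fell by 1.5 and 1.17. Not all round spermatid markers were lower, since ACRV1 (0.46, 504 against 347.5 CPM) and SPATA16 (0.35, 593 against 444 CPM) were on the other side of 0 without passing, and the summed round spermatid level overlapped, 1016 to 1242 CPM in the low and 1019 to 1515 in the high day 0 boars. HBB of blood fell by 2.53, from an uneven 6.72 ± 7.4 CPM (SD, n = 4) in the low boars, with overlap, while AHSP, the other blood marker tested, was at 0.3 and did not pass. None of the spermatogonial, Sertoli, Leydig, endothelial or macrophage markers passed. The summed spermatocyte markers ran from 1238 to 1653 CPM in the low day 0 boars and from 1732 to 2623 in the high day 0 boars, without overlap. Their part in the results was not tested. Between the breeds, where SPEF2 differed, the elongating spermatid markers did not pass, with a geometric mean of 77.9 to 256 CPM in Landrace and 142 to 260 in Duroc. Of all cell type markers 2 passed there, KIT of the spermatogonia, lower in Duroc by -1.40 (15.5 against 41.5 CPM, adjusted p = 0.000804, edgeR), and GATA4 of Sertoli cells, higher by 0.74 (23.1 against 13.9 CPM, adjusted p = 0.00764, edgeR).

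Pairs of members were also followed from boar to boar. Correlations of log2 CPM were computed within each breed, 42 relations in all, with two-sided permutation p-values adjusted over the 42. All points share tissue makeup and library composition, and groups too small for a value of their own were pooled within a breed. SPEF2, PMFBP1, SPATA6 and IFT88 had positive correlations with each other in both breeds, from 0.57 up. CCDC42 had a positive r with SUN5 and OAZ3 and a negative r with each of the 4, as low as -0.59 with IFT88 in Duroc. Most of these relations did not pass: IFT88 passed with no gene in Landrace, SUN5 with OAZ3 passed in neither breed, and OAZ3 had a positive r with SPEF2, PMFBP1 and SPATA6 in both breeds, from 0.16 to 0.4.

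PMFBP1 and SPATA6, partners in the coupling apparatus, gave Pearson's r = 0.89 and Spearman's rho = 0.84 over the 13 Landrace boars (adjusted permutation p = 0.0021 and 0.016), and r = 0.78 without the 2 boars farthest from the median of PMFBP1. Over the 8 Duroc boars they gave r = 0.94 and rho = 0.90 (adjusted permutation p = 0.0146 and 0.0479), and 0.89 without 2 boars. CCDC42 and OAZ3 gave r = 0.75 and rho = 0.82 in Landrace (adjusted permutation p = 0.023 and 0.016) and 0.71 without 2 boars. In Duroc that pair gave 0.64 and 0.67 and did not pass (adjusted permutation p = 0.215 and 0.218).

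CCDC42 and SUN5 gave r = 0.91 and rho = 0.95 in Duroc (adjusted permutation p = 0.0208 and 0.016), 0.92 without 2 boars, and r = 0.67 and rho = 0.57 in Landrace (0.0522 and 0.151, permutation), 0.46 without 2. SPEF2 passed by Pearson's r with SPATA6 in Landrace (0.70, adjusted permutation p = 0.0401), but that relation fell to 0.35 without 2 boars, so it rested on them, and rho was 0.62 (0.148). In Duroc SPEF2 passed by Pearson's r with PMFBP1 (0.87), SPATA6 (0.89) and IFT88 (0.88), each at an adjusted permutation p of 0.0298. By Spearman's rho, 0.74, 0.83 and 0.81, none of these 3 passed, with adjusted permutation p-values of 0.151, 0.112 and 0.131, and r without 2 boars was 0.64, 0.58 and 0.82. Thus 3 relations passed by Pearson's r in Landrace and 5 in Duroc.

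**Figure D5:**
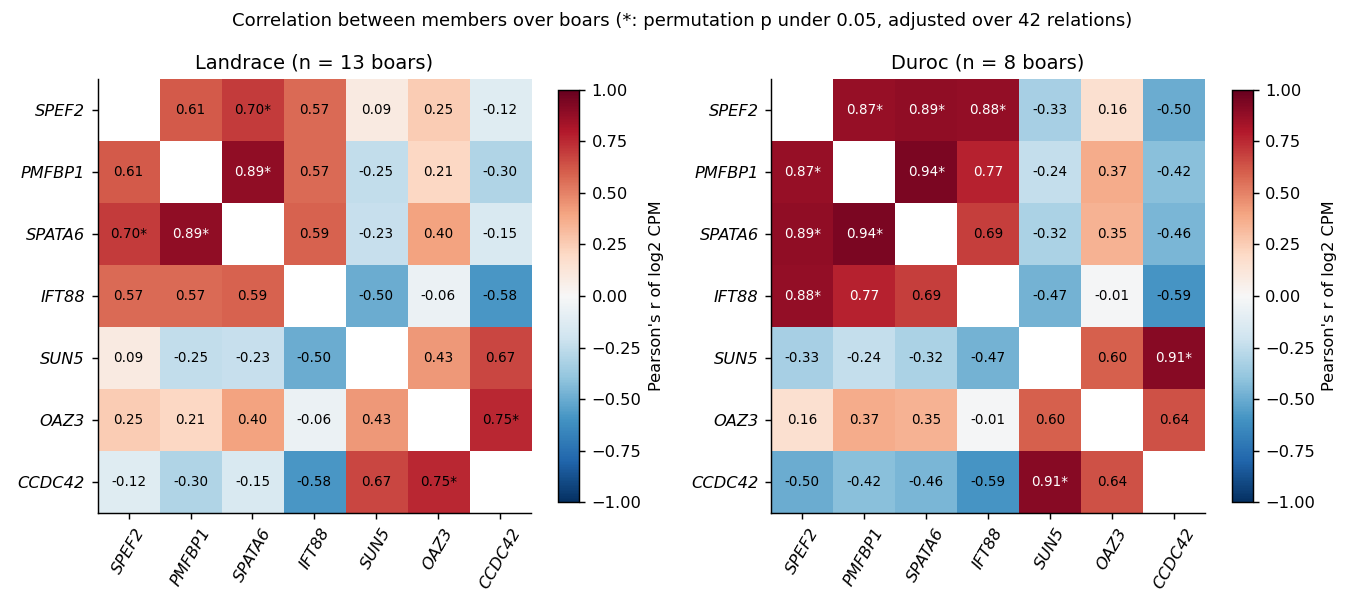
Pearson's r of log2 CPM between the 7 genes over the 13 Landrace boars and over the 8 Duroc boars, with colour from -1 to 1 and an asterisk where the adjusted permutation p was under 0.05. SPEF2, PMFBP1, SPATA6 and IFT88 form a positive block in both breeds, and CCDC42 is positive with SUN5 and OAZ3, with 3 relations in Landrace and 5 in Duroc past the threshold.

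Over all 21 boars, with each breed centred on its mean, the genes most like each member among 10810 were named. SPEF2 was most like RPS6KC1 (r = 0.899) and CFAP43 (0.889), a tail axoneme protein. PMFBP1 was most like NRDC (0.948) and LRP2BP (0.94), SPATA6 like RASSF8 (0.962) and CCDC150 (0.959), and IFT88 like GFRA3 (0.92) and the axonemal dynein DNAH12 (0.873). OAZ3 was most like GSG1 (0.953), a germ cell gene, and GPX4 (0.949), the selenoprotein of the sperm midpiece. CCDC42 was most like RFXANK (0.955) and SNX22 (0.954), and SUN5 like GATAD2A (0.923) and ARID3A (0.918).

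Such high values were common for some members and rare for others. An r over 0.9 was reached by 1.26% of the genes for CCDC42, 0.611% for SPATA6 and 0.268% for PMFBP1, and by 0.139% for OAZ3. For SUN5 the share was 0.0185% and for IFT88 0.00925%, while no gene reached it for SPEF2.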

How the data were processed

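The authors trimmed single reads with Trimmomatic 0.36, aligned them with STAR to Sscrofa 11.1, and counted reads per Ensembl gene with HTSeq, reverse stranded. The deposited values are raw counts, not normalized, 1 file per boar. Rows that name no gene held 29.4 to 39% of each library's reads and were left out. Names were found for 14857 of 25880 identifiers, and coordinates come from RefSeq on Sscrofa11.1.

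Analyses ran in R 4.3.3 on edgeR 4.0.16 (using limma 3.58.1) and, as an alternative, DESeq2 1.42.0. A gene was kept where 4 libraries or more reached 1 CPM (11 for the breeds, 8 for the interaction), and libraries were scaled by TMM. Differences were tested by the quasi-likelihood F-test of edgeR, adjusted by Benjamini and Hochberg over all genes tested, with a threshold of 0.05, each comparison fitted on its own boars. The likelihood ratio test of the study was among the alternatives, with relative log expression, other filters, a robust fit, leaving out boars, other sets of boars, a mean per hyperactivity label and CPM without TMM. Log2 CPM used a prior count of 2. Intervals are the log2 fold change with 95% normal limits, which are narrower than the test in groups this small, so an interval that leaves out 0 is not a call. Replicates were checked over 34 pairs of boars in the same group, with a chi-square per degree of freedom of 48.8 to 306.

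The members, the gene lists and the tests were chosen with earlier results of these data known. All members are named. From each list the 2 genes of smallest p that passed in each direction are named, or the 1 of smallest p where none passed, and for each member the 2 most alike genes. In the manchette list 1 gene that this rule names is not reported here.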

Additional observations from a re-analysis of the deposited data

Results flagged for a closer look

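SPEF2 in L10, a Landrace boar of the low change group, stood at 266 CPM, away from the other 3 boars of the group, which held 142.6 to 160.5 CPM. Its gap to the nearest boar, 0.855 of the group's range, exceeded Dixon's 95% critical value. It was 1 of 28 groups of values tested, where chance gives 1.4. Without L10 the breed difference of SPEF2 was 0.94 (adjusted p = 0.00877, edgeR).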

How the results depend on the processing

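No paired analysis was possible because the groups of each comparison hold different boars. The 14 breed means of the members moved by less than 1 SD without TMM. For the storage comparison the count of genes called went from 0 to 64 with the likelihood ratio test, 116 with DESeq2, and 1 with edgeR's own filter or no filter. The interaction count went from 0 to 3 and 6 with the same 2 tests. The breed count of 355 became 537 with DESeq2 and 554 with no filter, and 199, 136 and 91 against low day 0, high day 0 and other Landrace boars only, alternatives chosen after seeing the data that use fewer boars. SPEF2 between the breeds lost its call against high day 0 boars (0.58) and against boars in neither day 0 group (0.96). Directions turned for IFT88 in the storage comparison without L2 and L7 (-0.08), and between the breeds for OAZ3 against low day 0 boars (-0.15) and for SUN5 (0.19), PMFBP1 (-0.15) and SPATA6 (-0.18) against high day 0 boars, none of them called. The cause was not tested.

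Leaving out 1 boar, counts ran from 1 to 3764 at day 0, 0 to 2 for storage, 0 to 2 in Duroc (2 without D9) and 0 to 1 for the interaction. CCDC42 at day 0 ran from -1.34 to -0.85, past the threshold in 4 of 8 fits. Values near 0 that turned sign ran, for storage, from -0.59 to 0.07 for SPEF2, -0.2 to 0.02 for PMFBP1 and -0.03 to 0.1 for IFT88. Within Duroc they ran from -0.32 to 0.32 for CCDC42, -0.05 to 0.11 for OAZ3, -0.03 to 0.18 for PMFBP1, -0.2 to 0.07 for SPEF2 and -0.13 to 0.15 for SUN5, and between the breeds from -0.02 to 0.11 for OAZ3 and -0.04 to 0.08 for SPATA6. At 394 counts or more per boar, counting error was small beside the spread between boars.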
